A study of Mus musculus with 24 samples.

Results

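Transcripts of 9 genes that mark B cells were followed through 24 poly(A) RNA-seq libraries of sorted T cells. The genes were Cd79a, Cd79b, Ms4a1, Pax5, Ebf1, Cd22, Blk, Cd74 and H2-Aa, taken by name from a deposited table of raw counts for 55401 genes. They were set beside Pou2af1, the gene deleted in the study, because Pou2af1 is itself best known from B cells. The question was how much B cell transcript the sorted libraries held, and whether Pou2af1 followed it.

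CD4+ or CD8+ T cells came from spleens of 12-week-old C57BL/6 mice and were activated in vitro for 2 days with antibodies to CD3 and CD28. Each sort gave 3 genotypes with 4 libraries each. The control libraries, titled +/+ and called wild type (WT) here, carried no CD4-Cre and had both Pou2af1 alleles floxed by their genotype label. Heterozygotes (Het) carried CD4-Cre with Pou2af1 fl/+, and knockouts (KO) carried CD4-Cre with Pou2af1 fl/fl. Cre is therefore present in both deleted genotypes and absent from the controls. The CD4 promoter drives Cre in developing T cells and not in B cells, so a B cell carried through the sort would keep its Pou2af1. Whether the 4 numbered libraries of a group came from separate animals is not stated, so the p-values speak only to the spread between libraries, some of which may be technical.

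The listed genes cover the main parts of a B cell's identity. EBF1 and PAX5 are the transcription factors that set up and hold the B cell programme, and the signalling pair CD79A and CD79B is switched on by it. Membrane immunoglobulin needs that pair to signal, BLK is a Src-family kinase that acts with the receptor, and CD22 damps it. MS4A1 (CD20) is a B cell surface protein, while CD74 and H2-Aa belong to antigen presentation on MHC class II and are made by every professional antigen-presenting cell. POU2AF1 is a coactivator that B cells use with the octamer-binding proteins POU2F1 and POU2F2.

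Libraries held 11.9 to 21.8 megacounts over all genes (median 14.0). Levels are given in CPM, which is counts per megacount of the library total after TMM scaling. At this depth 3 counts, taken as the limit of detection, equal 0.138 to 0.251 CPM, and both this limit and any spread in low counts reflect counting error as well as sample differences. T cell markers checked the sorts. Cd4 averaged 488 CPM in CD4 libraries and 0.699 CPM in CD8 libraries, and Cd8a averaged 690 CPM in CD8 and 0.305 CPM in CD4 libraries. Cd8b1 was less clean, at 312 CPM in CD8 and 10.1 CPM in CD4 libraries. Pou2af1 checked the genotypes. It stood at 38.4 ± 10.9, 20.2 ± 4.28 and 2.19 ± 1.11 CPM in CD4 WT, Het and KO, and at 27.7 ± 6.18, 15.5 ± 1.40 and 1.71 ± 0.75 CPM in the same order in CD8 (SD, n = 4 each).

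The promoter of Cd79a is a textbook target of EBF1, and promoters of class II genes share a Y box bound by NF-Y. Promoter windows of 250 bases before to 50 bases after the start site, taken from RefSeq on GRCm38.p6, matched 6 of the 10 genes. Shown are a B cell receptor gene, an antigen-presentation gene and Pou2af1, as the start regions of the gene groups compared below. Capitals mark TCNNGGGA, a short pattern searched here for EBF1, in Cd79a (chr7:24897247-24897546, plus strand). In H2-Aa they mark CTGATTGG, the Y box (chr17:34287774-34288073, minus strand). In Pou2af1 they mark TGCAAAT, the core of the octamer (chr9:51213440-51213739, plus strand).
Cd79a: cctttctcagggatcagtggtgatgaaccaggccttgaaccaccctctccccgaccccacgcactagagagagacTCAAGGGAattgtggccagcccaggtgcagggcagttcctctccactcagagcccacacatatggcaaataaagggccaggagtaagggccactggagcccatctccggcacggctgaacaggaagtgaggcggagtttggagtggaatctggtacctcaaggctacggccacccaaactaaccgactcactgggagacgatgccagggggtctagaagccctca
H2-Aa: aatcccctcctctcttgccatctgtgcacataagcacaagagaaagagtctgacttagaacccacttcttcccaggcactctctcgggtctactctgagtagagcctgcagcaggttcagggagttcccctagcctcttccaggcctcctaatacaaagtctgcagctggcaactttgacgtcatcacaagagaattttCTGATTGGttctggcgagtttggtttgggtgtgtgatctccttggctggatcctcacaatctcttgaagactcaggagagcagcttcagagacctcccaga
Pou2af1: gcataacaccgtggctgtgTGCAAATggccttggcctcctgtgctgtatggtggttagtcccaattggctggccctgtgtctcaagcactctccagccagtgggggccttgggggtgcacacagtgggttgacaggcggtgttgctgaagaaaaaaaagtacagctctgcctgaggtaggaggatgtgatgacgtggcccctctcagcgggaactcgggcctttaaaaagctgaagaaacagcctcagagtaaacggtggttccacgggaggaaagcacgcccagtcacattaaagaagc
With both strands searched, TCNNGGGA lay 175 bases before the start of Cd79a and 137 bases before that of Pax5, and 18.1% of 32851 promoter windows of this length hold it. CTGATTGG lay 51 bases before the start of H2-Aa and is held by 4.10% of windows. TGCAAAT lay 231 bases before the start of Pou2af1 and is held by 4.02%. ATGCAAAT, which contains TGCAAAT, was found in none of the 6 genes' windows and in 1.74% of all. A match of letters is a description and not evidence of binding.

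Cd79a encodes the immunoglobulin alpha chain of the B cell receptor complex (GRCm38 chromosome 7, 24897381 to 24902197, plus strand). In CD4 libraries numbered 1 to 4 it stood at 0.471, 0.423, 3.13 and 1.26 CPM in WT, at 0.909, 1.27, 0.887 and 0.996 CPM in Het, and at 0.722, 0.834, 1.89 and 1.09 CPM in KO. In CD8 libraries it stood at 1.66, 1.74, 1.08 and 1.38 CPM in WT, 2.23, 1.27, 1.05 and 0.908 CPM in Het, and 1.08, 1.95, 1.42 and 1.10 CPM in KO. These are 6 to 44 raw counts, above the limit of detection in every library. All 6 groups overlap, and the highest and lowest values of the gene both belong to CD4 WT.

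Cd79b encodes its partner, the immunoglobulin beta chain (chromosome 11, 106311341 to 106314762, minus strand). CD4 libraries held 0.269, 0.141, 1.07 and 0.452 CPM in WT, 0.363, 0.533, 0.296 and 0.415 CPM in Het, and 0.144, 0.607, 0.946 and 0.925 CPM in KO. CD8 libraries held 4.38, 4.35, 6.57 and 2.75 CPM in WT, 8.77, 6.57, 3.60 and 3.35 CPM in Het, and 4.52, 7.16, 4.25 and 3.52 CPM in KO. Every CD8 library lay above every CD4 library, and within each sort the genotypes overlap. The genes of the receptor's signalling pair therefore had different patterns.

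Ms4a1 (chromosome 19, 11249675 to 11266241, minus strand), the gene for CD20, stood at 2.89, 1.62, 8.68 and 3.03 CPM in CD4 WT, 2.48, 3.87, 2.59 and 1.66 CPM in CD4 Het, and 1.52, 4.17, 5.31 and 3.28 CPM in CD4 KO. In CD8 it was 4.53, 3.01, 1.78 and 1.24 CPM in WT, 3.12, 2.12, 1.73 and 0.978 CPM in Het, and 3.68, 5.98, 1.27 and 1.72 CPM in KO. The groups overlap throughout. In each CD8 genotype the libraries numbered 1 and 2 lie above those numbered 3 and 4, a split not counted over all genes.

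Cd22, the inhibitory sialic acid-binding receptor (chromosome 7, 30865402 to 30880342, minus strand), had the widest spread in CD4 WT, at 0.336, 0.0704, 4.77 and 1.04 CPM, which is 1 to 67 counts. CD4 Het libraries ran from 0.415 to 0.887 CPM and CD4 KO libraries from 0.217 to 2.04 CPM, inside the WT range. CD8 libraries ran from 0.964 to 2.14 CPM in WT, 0.629 to 2.01 CPM in Het and 0.85 to 3.62 CPM in KO. Blk (chromosome 14, 63372836 to 63417037, minus strand) was the least abundant member by count, with 0 to 21 counts per library. It was at 0 in CD4 KO library 1 and reached 1.49 CPM in CD4 WT library 3 and 0.906 CPM in CD8 WT library 1. Group means of Blk lay between 0.161 and 0.567 CPM.

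Among the transcription factors, Pax5 (chromosome 4, 44524757 to 44710487, minus strand) stood at 4.71, 3.03, 8.97 and 3.25 CPM in CD4 WT and at 1.74, 2.22, 1.27 and 0.895 CPM in CD8 WT. Each CD8 WT library lay below each CD4 WT library. Pax5 in the deleted genotypes ran from 1.41 to 4.73 CPM in CD4 Het, 2.31 to 5.60 CPM in CD4 KO, 0.698 to 2.53 CPM in CD8 Het and 0.425 to 3.55 CPM in CD8 KO, so over all genotypes the sorts overlap. Ebf1 (chromosome 11, 44617317 to 45008091, plus strand) averaged 1.31 ± 0.684, 1.27 ± 0.343 and 1.32 ± 0.307 CPM in CD4 WT, Het and KO (SD, n = 4 each). In CD8 it averaged 0.672 ± 0.32 CPM in WT, 0.217 ± 0.057 CPM in Het and 0.514 ± 0.28 CPM in KO, and Het libraries held only 2 to 4 counts, at or near the limit of detection. Genes annotated on the opposite strand overlap Ms4a1, Pax5, Ebf1 and Cd22. Whether counting used strand is not stated in the sources, and reads from such neighbours cannot be told apart.

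The antigen-presentation genes split. Cd74, the invariant chain that escorts class II molecules (chromosome 18, 60803848 to 60812652, plus strand), was the most abundant member. It stood at 90.4, 109, 95.1 and 74.9 CPM in CD4 WT, 76.4, 84.7, 67.2 and 81.2 CPM in CD4 Het, and 92.6, 67.4, 71.4 and 66.1 CPM in CD4 KO. CD8 libraries held 37.0, 31.7, 29.2 and 26.2 CPM in WT, 49.7, 39.5, 23.3 and 21.6 CPM in Het, and 35.6, 48.1, 27.1 and 27.7 CPM in KO. Every CD4 library lay above every CD8 library, the reverse of Cd79b. H2-Aa, the class II alpha chain (chromosome 17, 34282744 to 34287823, minus strand), stood at 1.82, 1.62, 7.19 and 1.99 CPM in CD4 WT, with library 3 apart from the others, and at 5.13, 5.22, 3.82 and 2.20 CPM in CD8 WT. It ran from 1.15 to 7.28 CPM over the deleted genotypes, and its sorts overlap.

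**Figure D1:**
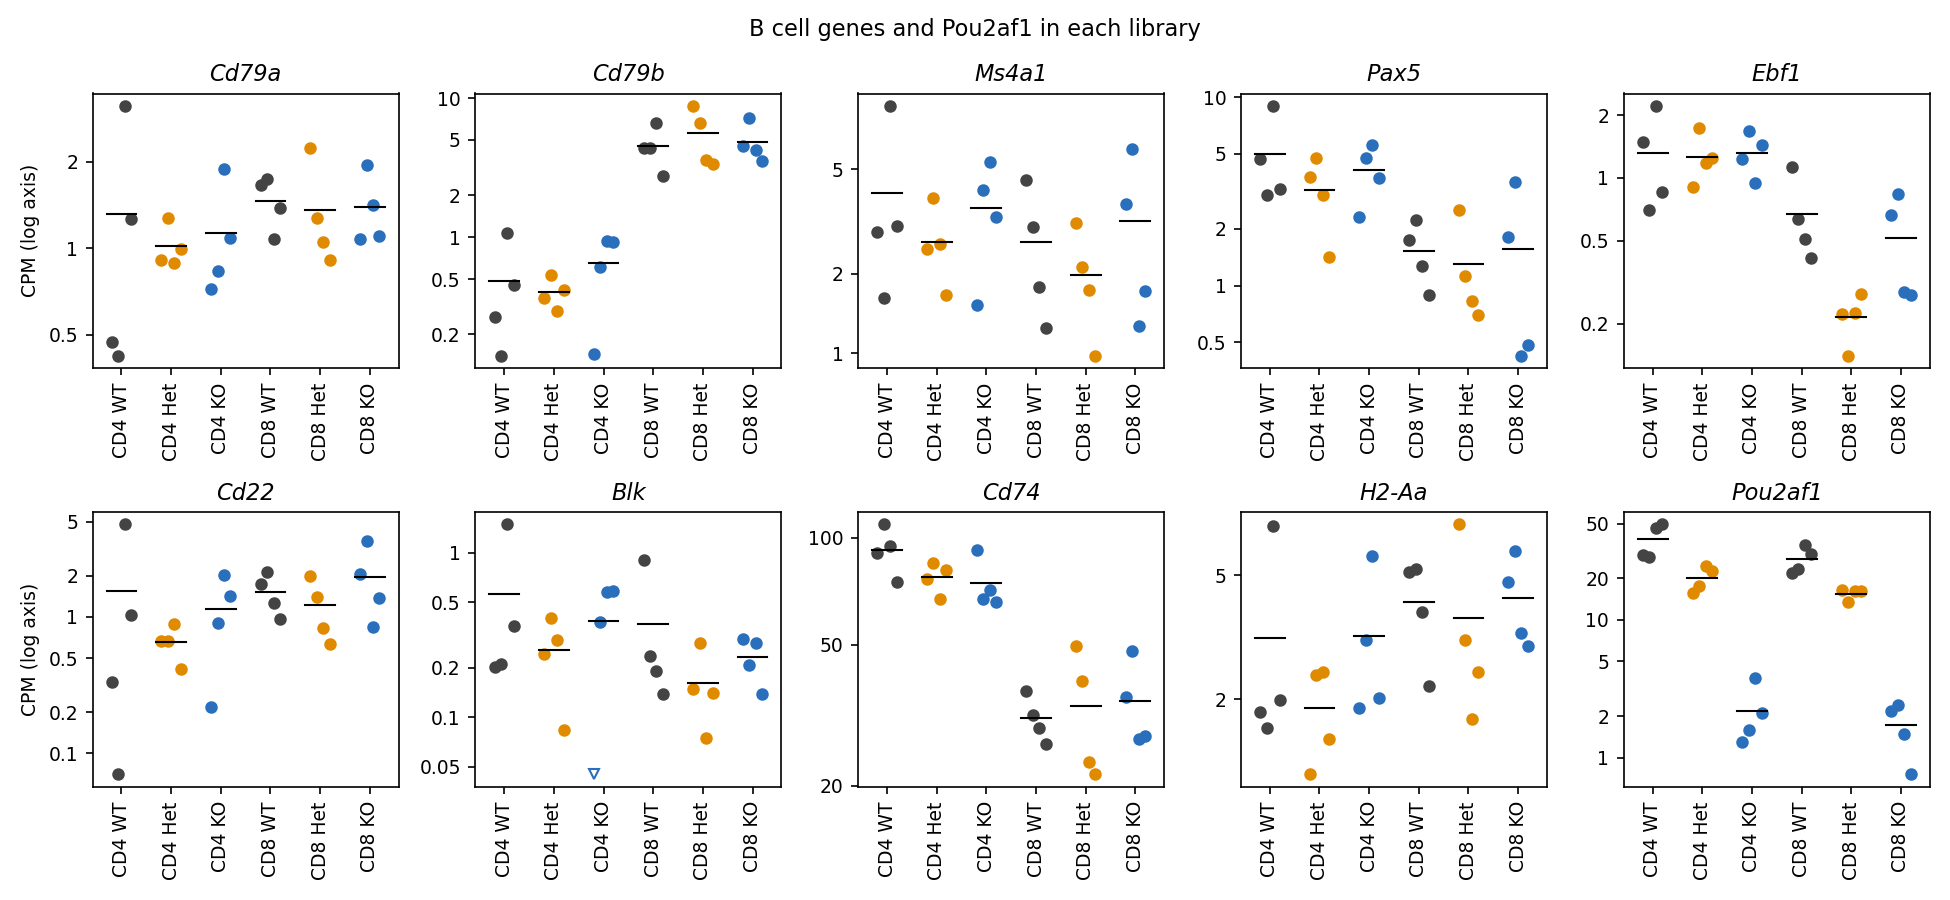
Level of each B cell gene and of Pou2af1 in CPM (log axis) in 24 libraries, by sort and genotype. Points are libraries in the order of their numbers, bars are means of 4 and an open triangle marks 0 counts; Cd79b is higher in every CD8 library, Cd74 in every CD4 library, and Pou2af1 in every KO library lies below all WT and Het libraries.

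Levels per length put the members in order against the T cells' own transcripts. In CD4 WT, Cd74 held 55.0 CPM per kilobase of exon. Of the 12 listed T cell genes, the receptor gene Trac was highest at 425 CPM per kilobase, Lck stood at 140, Cd3e at 57.1 and Cd247 at 21.4, while Cd8a was at 0.0594 CPM per kilobase. Pou2af1 followed at 15.1 CPM per kilobase. The remaining 8 members lay lower, with Cd79a at 0.907, H2-Aa at 0.831, Ms4a1 at 0.655, Pax5 at 0.564, Cd79b at 0.338, Cd22 at 0.308, Blk at 0.21 and Ebf1 at 0.135 CPM per kilobase. Neighbours in this order of 8 do not differ beyond their spread, since Cd79a alone ran from 0.29 to 2.15 CPM per kilobase over the 4 libraries. In CD8 WT the order was Cd74 at 18.5, Pou2af1 at 10.9, Cd79b at 3.15, H2-Aa at 1.08 and Cd79a at 1.01 CPM per kilobase, with the others at 0.427 or below. In the knockouts Pou2af1 came down to 0.86 CPM per kilobase in CD4 and 0.672 in CD8, beside 0.778 and 0.952 for Cd79a. In bulk RNA, fewer cells of a type and less RNA per cell cannot be told apart.

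The members were compared between genotypes within each sort. The tests were edgeR quasi-likelihood tests over all genes kept, with Benjamini-Hochberg adjustment, and a gene was called at an adjusted p under 0.05. In CD4 cells 7 of 9 members had enough counts to be tested (not Cd79b or Blk), and in CD8 cells 7 of 9 (not Ebf1 or Blk). For KO against WT 0 of 7 were called in CD4, where 0.0708% of all genes were called, and 0 of 7 in CD8, where 0.0634% were. For Het against WT the count was 0 of 7 in both sorts, with 0.0865% of genes called in CD4 and 0.0634% in CD8. For KO against Het it was again 0 of 7 in both, with 0.0157% and 0.0159% of genes called. DESeq2 also called 0 members in each of the 6 comparisons, and so did edgeR without a filter on low counts. With so few genes called anywhere, a count of 0 is near the background, and it does not show that the members' levels were equal.

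At an unadjusted p under 0.05 edgeR gave 1 member in CD4 KO against WT, where 2.44% of all genes lay under it, and 0 in the other 5 comparisons, where 1.74% to 8.67% did. The exception was Cd74, at 74.4 ± 12.4 CPM in KO against 92.3 ± 14.0 CPM in WT (SD, n = 4 each), a log2 difference of -0.32 (SE 0.13, edgeR unadjusted p = 0.0317, adjusted p = 1.0), and the groups overlap. The smallest changes that could have been seen differ between members, since the SE of KO against WT in CD4 was 0.54 for Cd79a and 0.84 for Cd22. Ebf1 in CD8 Het is the one member that did not overlap its WT group. How many of all genes were without overlap there was not counted, so this has no background to be read against. Without the filter its log2 difference was -1.59 (SE 0.51, edgeR unadjusted p = 0.00449, adjusted p = 0.972), on 2 to 4 counts against 6 to 15. Pou2af1 did change: by -4.13 on the log2 scale in CD4 KO (SE 0.31, edgeR adjusted p = 2.96e-05) and -4.0 in CD8 KO (SE 0.26, edgeR adjusted p = 5.66e-06).

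The signs of the member differences from WT in CD4 cells rested on 1 library. Over all libraries the median log2 difference of the 7 tested members was -0.216 for KO against WT, with 2 above and 5 below 0, and -0.604 for Het against WT, with 0 above and 7 below. The medians over all genes were -0.00588 and -0.0193. Without CD4 WT library 3 the medians of the members became 0.487, with 6 above and 1 below, and 0.066, with 5 above and 2 below. Cd22 moved from -0.42 to 1.09 and H2-Aa from 0.03 to 0.81 for KO against WT, and Cd74 stayed at -0.30. None was called with that library left out. KO against Het, which does not use that library, had 6 members above and 1 below 0 in CD4 (median 0.328, beside 0.00668 over all genes). In CD8 cells the median was 0.106 for KO against WT, with 6 above and 1 below, and -0.169 for Het against WT, with 2 above and 5 below, beside 0.00261 and 0.00413 over all genes. For KO against Het in CD8 it was 0.229, again with 6 above and 1 below, beside -0.00375. The difference between sorts in genotype effect was tested in a fit of all 24 libraries. There 0 of 8 tested members passed for the KO effect and 0 of 8 for the Het effect, with 0.00753% of genes called in each. At an unadjusted p under 0.05 the Het effect gave Ebf1 alone (log2 difference of effects -1.55, SE 0.61, edgeR unadjusted p = 0.0195), beside 4.05% of all genes. The KO effect gave 0 members, beside 1.72% of all genes, and DESeq2 called 0 in both.

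Genes from wider lists of B cell products were compared between genotypes in the same fits. Some were far more abundant than the members. In CD4 WT, Irf4 averaged 949 CPM, Irf8 462, Bach2 295, Ctss 242 and Ighm 154, against 4.99 CPM or less for members other than Cd74. Others were low, such as Fcrl1 at 4.78 CPM. Which cells these transcripts came from was not tested, so the counts below are not about B cell transcript alone. Of 24 receptor, coreceptor and surface genes, 6 immunoglobulin constant genes, 9 transcription factors, 8 plasma cell genes and 11 genes of the class II pathway, 42 could be tested in CD4 and 44 in CD8. Both edgeR and DESeq2 called 0 of them in each of the 6 genotype comparisons. At an unadjusted p under 0.05 edgeR gave 1 gene in CD4 KO against WT (Cd37, a B cell tetraspanin), 5 in CD4 Het against WT and 3 in CD8 KO against WT, which is 2.38%, 11.9% and 6.82% of those tested beside 2.44%, 8.67% and 2.89% of all genes. It gave 0 in CD8 Het against WT, beside 1.74% of all genes. For KO against Het it gave 1 in CD4 and 3 in CD8, which is 2.38% and 6.82% of those tested beside 3.66% and 6.83% of all genes.

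Library-to-library differences were shared by most members. The counts of the 7 members outside antigen presentation (Cd79a, Cd79b, Ms4a1, Pax5, Ebf1, Cd22 and Blk) were summed. In CD4 libraries numbered 1 to 4 the sum was 10.4, 6.20, 30.3 and 10.3 CPM in WT, 9.33, 13.2, 9.16 and 6.22 CPM in Het, and 6.14, 13.4, 17.3 and 12.4 CPM in KO. In CD8 libraries it was 16.1, 14.3, 12.7 and 7.78 CPM in WT, 19.0, 12.9, 8.33 and 6.98 CPM in Het, and 14.1, 23.3, 8.78 and 8.62 CPM in KO. CD4 WT library 3 is the highest of all 24. In CD8 the 6 libraries numbered 1 or 2 (12.9 to 23.3 CPM) all lay above the 6 numbered 3 or 4 (6.98 to 12.7 CPM), though the ranges nearly touch. Not every member split so, since Cd79b was highest of CD8 WT in library 3, at 6.57 CPM. How many of all genes split by number was not counted, so this has no background to be read against. In CD4 the same split overlapped (6.14 to 13.4 against 6.22 to 30.3 CPM). What the numbers stand for is not given in the labels.

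**Figure D2:**
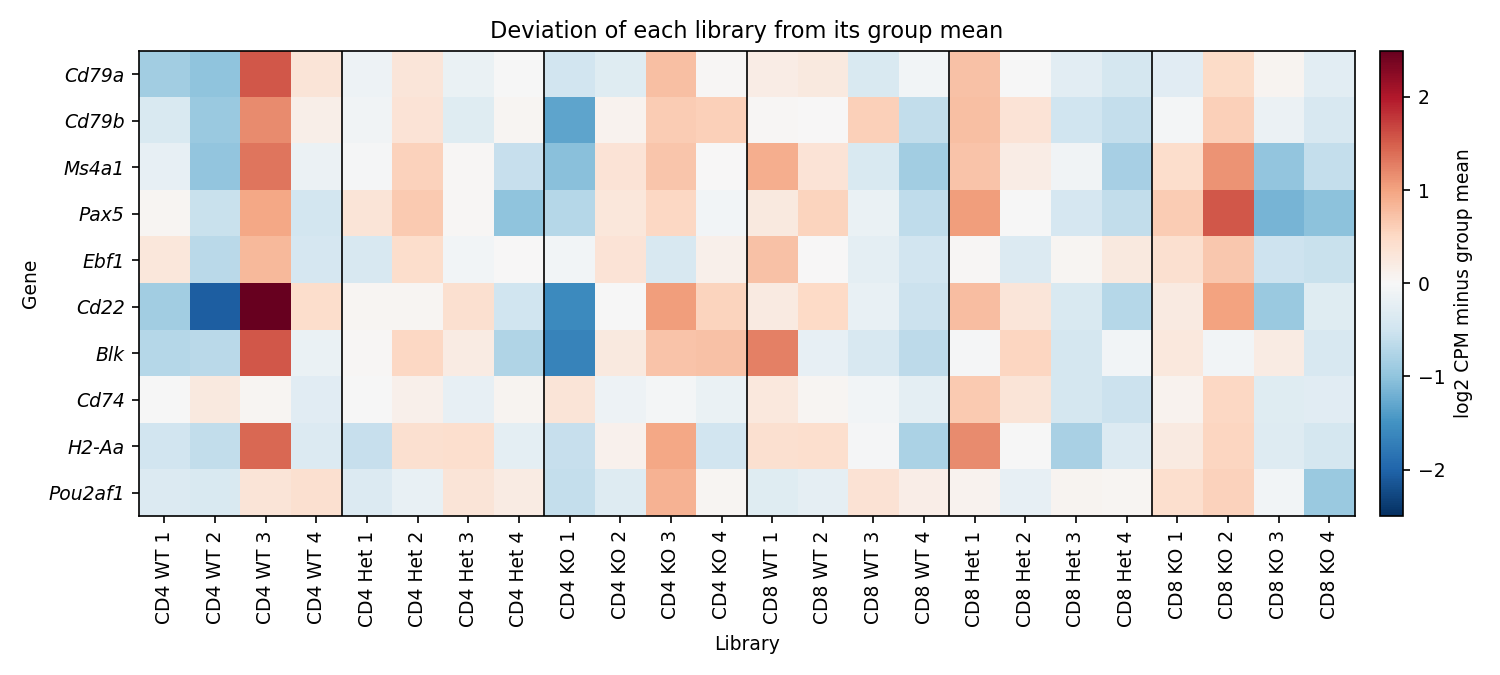
Deviation of each library from its group mean in log2 CPM (colour) for the 9 B cell genes and Pou2af1 (rows) in 24 libraries (columns). CD4 WT 3 is high for all members except Cd74, CD8 KO 2 for most, and the Cd74 row is pale in CD4 libraries.

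After group means were removed, members could be compared over the 24 libraries as a description, since they share library, depth and preparation. The sum of Cd79a, Cd79b and Ms4a1 went with Cd22 (r = 0.928), H2-Aa (0.866), Pax5 (0.804) and Blk (0.763), less with Ebf1 (0.54), and least with Cd74 (0.355). Pou2af1 stood at r = 0.496 with it. Among the genes most like it were Igkc, the kappa light chain constant region (r = 0.913), the B cell factor Mef2c (0.857), Wdfy4 (0.854), Snx9 (0.853), Slc28a2b (0.848), Emilin1 (0.842) and the antiproliferative gene Btg1 (0.832). Of 21 surface genes 5 reached r = 0.7, of 4 immunoglobulin genes 1, of 7 transcription factors 2, of 10 class II pathway genes 1, and of 12 T cell genes 2. Of 5 plasma cell, 3 dendritic cell and 1 macrophage genes 0 did, against 84 of 11713 genes searched, or 0.717%. Ighm, the mu heavy chain, stood at only 0.43. For Cd74 with H2-Aa, where Cd74 outweighs H2-Aa by count, the most alike were Sh3pxd2a (0.903), the chemokine Ccl9 (0.899), Tnfrsf14 (0.883) and Zmynd8 (0.86), none of them on the marker lists.

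CD8 and CD4 libraries differed in 4 members, in opposite directions. Over the 3 genotypes 8 of 9 members were tested (not Blk) and 4 were called, 1 higher and 3 lower in CD8. In this contrast 54.6% of all genes were called, 27% higher and 27.6% lower, so the share of members is near the background. Cd79b averaged 4.98 CPM in CD8 and 0.513 CPM in CD4 libraries (n = 12 each), a log2 difference of 3.29 (SE 0.27, edgeR adjusted p = 1.05e-09). Cd74 averaged 33.1 and 81.3 CPM, a log2 difference of -1.29 (SE 0.13, edgeR adjusted p = 1.33e-08). These 2 are the members whose sorts did not overlap. How many of all genes were without overlap was not counted, so this separation has no background to be read against. Pax5 averaged 1.46 and 4.11 CPM, a log2 difference of -1.47 (SE 0.31, edgeR adjusted p = 0.000383). Ebf1 averaged 0.468 and 1.30 CPM, a log2 difference of -1.59 (SE 0.24, edgeR adjusted p = 8.01e-06). The log2 differences of the 4 that did not pass were 0.28 for Cd79a, -0.41 for Ms4a1, 0.55 for Cd22 and 0.58 for H2-Aa. DESeq2 also called 4. The median of the 8 was -0.061, beside -0.003 over all genes.

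Without CD4 WT library 3 the count was 7 of 8, since Cd79a (log2 difference 0.54), Cd22 (1.05) and H2-Aa (0.84) then passed as higher in CD8. In that fit 55% of all genes were called. Without CD4 KO library 3, H2-Aa passed as well, at 0.74, with 54.6% of all genes called. In WT libraries alone 3 of 8 members were called, 1 higher and 2 lower, where 31.2% of all genes were, 14.7% higher and 16.6% lower. They were Cd79b (log2 difference 3.22, SE 0.47, edgeR adjusted p = 1.81e-05), Cd74 (-1.57, SE 0.22, edgeR adjusted p = 1.04e-05) and Pax5 (-1.70, SE 0.53, edgeR adjusted p = 0.0184). Ebf1 stood at -0.95 and did not pass (SE 0.38, edgeR adjusted p = 0.0621), but passed once library numbers entered as a replicate block (-0.96, edgeR adjusted p = 0.0372, range over alternatives 0.0217 to 0.266). The Pax5 call was lost without CD4 WT library 3 (-1.27) and also without CD8 WT library 3 (-1.62) or 4 (-1.51).

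**Figure D3:**
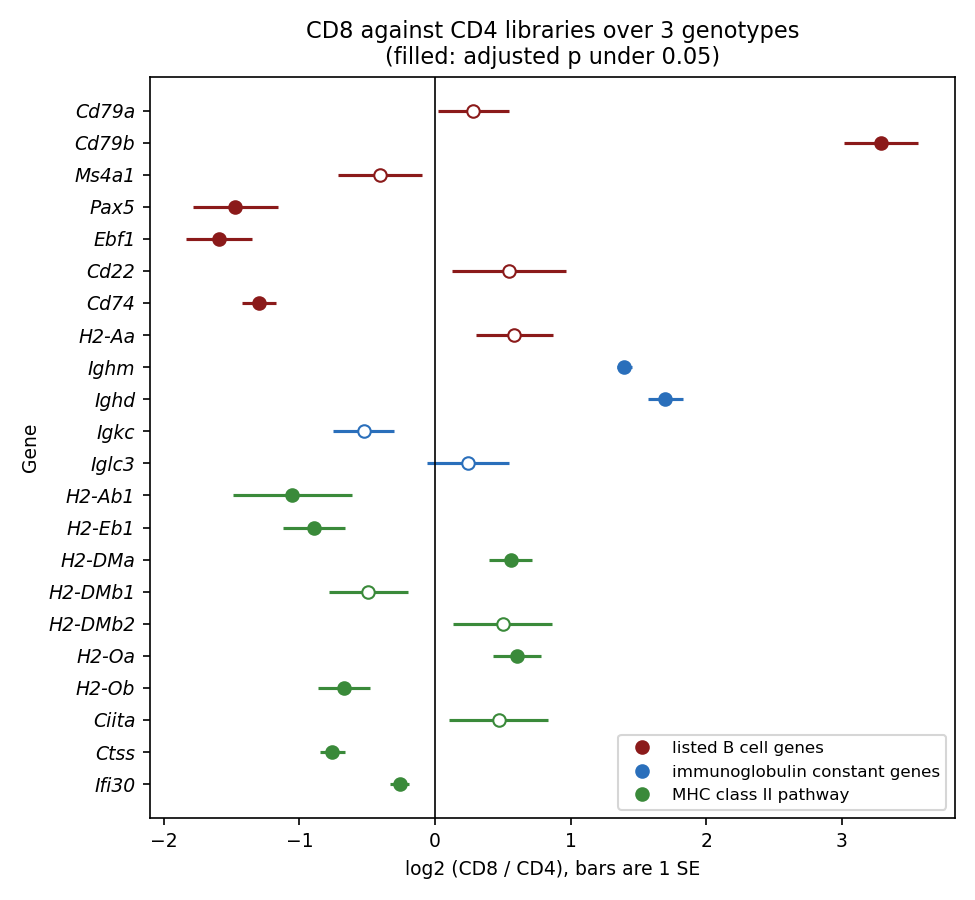
Log2 ratio of CD8 to CD4 libraries over 3 genotypes (x axis, bars 1 SE) for tested B cell genes, immunoglobulin constant genes and class II pathway genes. Filled points passed at an adjusted p under 0.05; members of one group point both ways, with Cd79b at 3.29 and Cd74 at -1.29.

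The wider lists, which include the abundant genes named above, also went both ways between sorts. The counts that follow stand beside 54.6% of all genes called, 27% higher and 27.6% lower. Among 21 tested surface genes 5 were higher and 10 lower in CD8 (median log2 difference -0.40). Cd72, an inhibitory receptor, averaged 13.6 CPM in CD8 and 3.74 in CD4, and the follicular homing receptor Cxcr5 11.0 and 4.14 CPM. On the other side stood the tetraspanin Cd81, at 5.98 and 45.2 CPM, and the low-affinity IgE receptor Fcer2a, at 0.841 and 6.25 CPM. Of 4 immunoglobulin genes 2 were higher and 0 lower in CD8 by edgeR: Ighm averaged 381 CPM in CD8 and 145 CPM in CD4, and Ighd 15.5 and 4.82 CPM. Igkc, at 3.23 and 4.64 CPM, did not pass by edgeR (adjusted p = 0.054) and was called by DESeq2, which called 35 of the listed genes where edgeR called 34. Of 10 class II pathway genes 2 were higher and 5 lower, among them H2-Ab1, the beta partner of H2-Aa, at 2.99 CPM in CD8 and 6.70 CPM in CD4. H2-Aa and H2-Ab1 thus had log2 differences of opposite sign, 0.58 and -1.05. The second passed narrowly (edgeR adjusted p = 0.047), with sorts that overlap and CD4 levels from 1.01 to 20.1 CPM. In WT libraries alone H2-Ab1 did not pass (edgeR adjusted p = 0.0942). Of 7 transcription factors 3 were higher and 4 lower, with Ikzf3 at 154 CPM in CD8 and 26.7 CPM in CD4. Of 5 tested plasma cell genes 2 were higher and 1 lower.

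Markers of other cells were mostly low. Summed over 11 macrophage and monocyte genes, libraries held 1.35 to 2.60 CPM in CD4 and 2.48 to 4.60 CPM in CD8, and C1qa was at 0 in all. Over 8 dendritic cell genes the sums ran from 4.87 to 13.6 CPM in CD4 and 9.74 to 21.4 CPM in CD8, and Cd209a was at 0 in all. The dendritic sums rested mostly on Zbtb46, at 6.96 CPM in CD8 and 7.44 CPM in CD4, and on Batf3, at 5.79 CPM in CD8 and 0.568 CPM in CD4. Itgax, which encodes CD11c, averaged 1.28 CPM in CD8 and 0.0732 CPM in CD4. Of 3 dendritic cell genes tested, Batf3 and Itgax passed as higher in CD8 and 0 as lower, beside 27% and 27.6% of all genes. Flt3, not tested, went the other way, with group means of 0.399 to 0.544 CPM in CD4 and 0 to 0.0803 CPM in CD8. Xcr1 was also higher in CD4, with every group mean below the limit of detection. Clec9a and Siglech reached at most 1 count in a library. Over 8 neutrophil genes no library exceeded 0.249 CPM. Tnfrsf17, the plasma cell receptor BCMA, was at 0 in all libraries. The part of these cells in the levels of Cd74 and H2-Aa was not tested.

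Pou2af1 did not follow the B cell genes across genotypes. It is the gene deleted, so a lower ratio in Het and KO was built into the design wherever Cre acted. With group means removed, its r with the sum of Cd79a, Cd79b and Ms4a1 was 0.496 over the 24 libraries. Per count of the 7 summed members, CD4 WT libraries 1 to 4 held 2.84, 4.60, 1.53 and 4.81 Pou2af1 counts, and CD8 WT libraries 1.36, 1.63, 2.77 and 3.89. Het libraries held 1.33 to 3.67 in CD4 and 0.863 to 2.30 in CD8. In KO the ratio was 0.212, 0.119, 0.218 and 0.169 in CD4 and 0.154, 0.104, 0.169 and 0.088 in CD8. Means were 3.45 ± 1.55, 2.34 ± 1.06 and 0.18 ± 0.0458 in CD4 WT, Het and KO, and 2.41 ± 1.16, 1.53 ± 0.694 and 0.129 ± 0.0389 in CD8 (SD, n = 4 each). KO libraries did not overlap the other genotypes in either sort, and WT and Het overlapped. The summed members themselves averaged 14.3 ± 10.8, 9.48 ± 2.86 and 12.3 ± 4.62 CPM in CD4 WT, Het and KO, and these groups overlap.

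**Figure D4:**
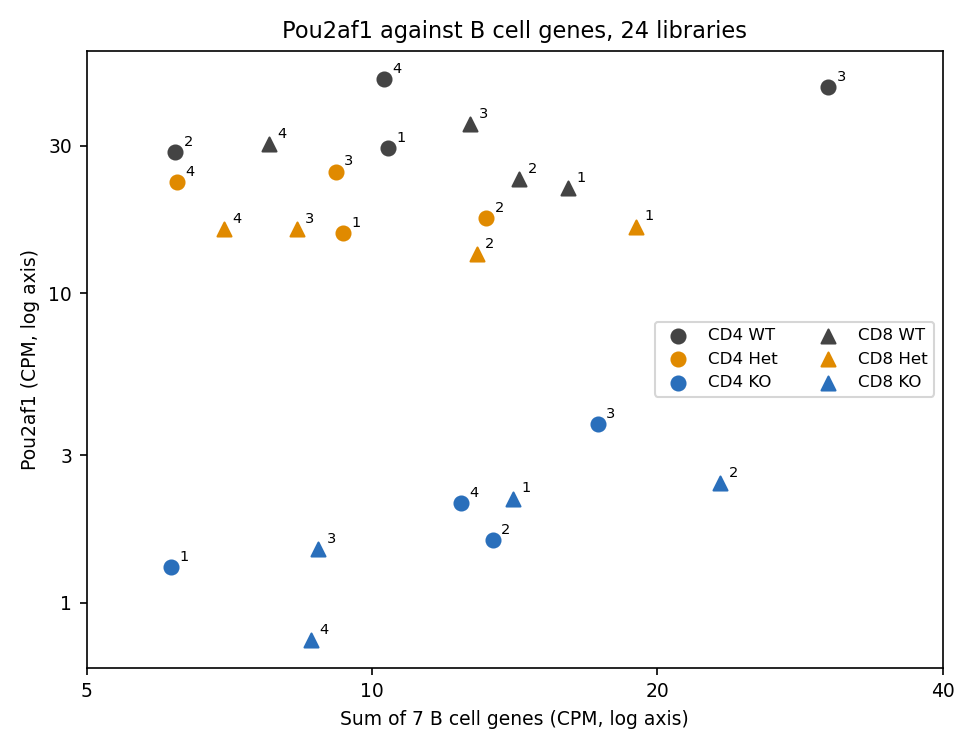
Pou2af1 (y axis, CPM, log) against the sum of 7 B cell genes (x axis, CPM, log) in 24 libraries, with circles for CD4, triangles for CD8, colour for genotype and the library number beside each point. KO libraries lie at 0.759 to 3.78 CPM of Pou2af1 at B cell sums of 6.14 to 23.3 CPM, and WT libraries at 21.9 to 49.3 CPM at sums of 6.20 to 30.3 CPM.

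The highest ratio of Pou2af1 to summed B cell counts in a knockout library was 0.218 in CD4 and 0.169 in CD8. Multiplied by those ratios, the B cell gene counts of WT libraries equal 4.55% to 14.3% of the Pou2af1 counts measured in CD4 and 4.35% to 12.4% in CD8. In Het libraries the same arithmetic gives 5.96% to 16.4% in CD4 and 7.36% to 19.6% in CD8. The highest value in CD4 WT is library 3, the one richest in B cell genes. These percentages set the KO ratios beside the other genotypes and no more. Which cells the Pou2af1 counts of any genotype came from was not tested, nor whether the ratio in a B cell is equal across genotypes.

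Within the KO groups Pou2af1 and the B cell sum were lowest and highest together in CD4, at 1.30 CPM of Pou2af1 in library 1, the lowest in B cell genes, and 3.78 CPM in library 3, the highest. In CD8 KO library 2 was highest in both (2.43 CPM of Pou2af1). Library 4 was lowest in both (0.759 CPM), though its B cell sum was close to that of library 3. In WT libraries the order was shared in part in CD4 and not in CD8. Pou2af1 was 29.4, 28.5, 46.3 and 49.3 CPM in CD4 WT libraries 1 to 4. Library 2 was lowest in both, at a B cell sum of 6.20 CPM. Library 4 was highest in Pou2af1 at a B cell sum of 10.3 CPM, and library 3, richest in B cell genes, came next to it. In CD8 WT Pou2af1 was 21.9, 23.4, 35.1 and 30.3 CPM, higher in libraries 3 and 4, where the B cell sum was lower. With 4 libraries a group these orders are descriptions only.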

How the data were processed

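Poly(A) RNA was sequenced from 24 libraries of sorted, activated mouse spleen T cells. The authors deposited raw gene counts for 55401 genes. Per the submitters' processing notes, Trimmomatic 0.35, STAR 2.7.1a, DESeq2 1.26.0 and build GRCm38 were used. The sources give neither the annotation release nor the strand setting. Summary lines of the count table (31.6% to 35.0% of entries; multimapping 17.6% to 18.6%) were left out, so near-identical gene copies keep only uniquely placed reads. The deposited normalized table was not used. The number of per-sample columns left unused in the count table was 0. Gene positions and exon lengths came from GENCODE, where 54349 of 55401 identifiers matched.

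The main tests used edgeR 4.0.16 in R 4.3.3 (filterByExpr, minimum count 10; TMM factors 0.976 to 1.022; 2-sided quasi-likelihood F test; Benjamini-Hochberg adjusted p under 0.05 over all genes kept, 12719 for CD4, 12612 for CD8 and 13288 for both sorts). Standard errors are the log2 difference over the square root of F. Genotypes were compared in 12 libraries of a sort with 9 residual degrees of freedom, and sorts in all 24 with 18. The script was tested on simulated data. Alternatives were DESeq2 1.42.0, no filter, a replicate block, each library left out, and libraries 1 and 2 or 3 and 4 only. Likeness is Pearson's r of log2 CPM (prior count 2) deviations from group means, over 11721 genes of at least 1 CPM; the 8 most alike per pattern were taken, of which 1 is not reported here. Libraries of a group differed by more than sampling noise (36 pairs, chi-square per degree of freedom at least 2.62). In CD8 WT and Het it was 3.29 and 2.99 between libraries 1 and 2, and 9.94 to 24.5 in the other pairs. In CD8 KO it was 19.0 between libraries 1 and 2 and 4.40 between 3 and 4. The 9 genes and all lists were chosen with earlier results of these data known.

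Same-numbered libraries deviated together in every pair of CD4 groups (r from 0.132 to 0.58) and between sorts of 1 genotype (0.147 to 0.451). CD8 groups did not, with WT and Het from -0.226 to 0.223. By the rule of every r over 0.1, numbers were taken to pair CD4 groups and the sorts, from the data and not from the labels. The same number was the best match for only 2 of 4 libraries in each pair of CD4 groups. Between sorts of 1 genotype it was best for 3 or 4. The rule also passed CD4 WT with CD8 KO (best for 2). CD4 WT and CD4 KO passed with CD8 Het as well, where the same number was best for 0. The rule therefore does not show that same-numbered libraries are matched.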

Additional observations from a re-analysis of the deposited data

Results flagged for a closer look

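Within each group of 4, 66 sets of values were examined for a library far from the others, and chance flags about 1 set in 20. Blk in CD4 WT library 3 stood at 1.49 CPM, against 0.202 to 0.361 CPM in the other CD4 WT libraries. H2-Aa was also apart in that library, at 7.19 CPM against 1.62 to 1.99 CPM. Blk in CD8 WT library 1 stood at 0.906 CPM, which is 12 counts, against 2 or 3 counts in the others. Pou2af1 in CD8 Het library 2 lay low, at 13.4 CPM, against 16.1 to 16.4 CPM in the others. Whether a cause is shared by these values was not tested.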

How the results depend on the processing

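No member was called in any genotype comparison under any alternative run. Of 1434 repeats for single genes 1400 kept their status, whether called or not called. A call was lost in 19 and gained in 15, and 0 turned a called direction. The count of members that differed between sorts over genotypes was 4 to 7 with each library left out, where 52.4% to 57.4% of all genes were called. It was 7 with the CD4 libraries numbered 3 left out, where 53.3% of all genes were called. That alternative was chosen after seeing the data. Of the calls lost, 15 were Pou2af1 between sorts (log2 difference -0.41 to -0.20 where lost, edgeR adjusted p 0.0518 to 0.325, over a full range of 0.0226 to 0.325) and 4 were Pax5 between WT sorts. With the replicate number as a block, Ebf1 between WT sorts passed (log2 difference -0.96, edgeR adjusted p = 0.0372, range over alternatives 0.0217 to 0.266), and so did Pou2af1 in CD4 Het against WT (-0.92, edgeR adjusted p = 0.00491, range 0.00491 to 0.727); the block changed no other call of a member or of Pou2af1. Counts of all genes called moved most in CD4 Het against WT (11; 73 by DESeq2, 45 with the block, 264 with libraries 1 and 2 only, 6 without the CD4 libraries numbered 3) and in CD8 KO against Het (2; 19 by DESeq2, 243 with libraries 1 and 2 only), so the percentages beside those comparisons depend on the processing.

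Pou2af1 counts per B cell gene count depend on the sum. Over all 9 genes, where Cd74 dominates, they were 0.362, 0.231 and 0.0245 in CD4 WT, Het and KO and 0.609, 0.365 and 0.0322 in CD8. Over Cd79a, Cd79b and Ms4a1 they were 8.79, 5.31 and 0.423 in CD4 and 0.182 in CD8 KO. Without Cd79b they were 3.99, 2.89 and 0.214 in CD8 WT, Het and KO, also chosen after seeing the data. Low counts limit Blk, Ebf1 in CD8 and Cd79b in CD4, and small changes there were not detectable at this depth. The cause of these shifts was not tested.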
